A study of Mus musculus with 16 samples.

Results

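The 36 genes described here mark or serve vascular endothelial cells, the cells that line blood vessels, and they were followed through 16 subcutaneous prostate tumours. The list was taken by gene symbol from the deposited count table, in which 36 of 55414 gene IDs belong to it, with 1 ID for each gene. The tumours were grown from B6MyC-CaP cells, a line made from the prostate cancer of Hi-MYC transgenic mice on a C57BL/6 background, and all hosts were male C57BL/6 mice of 6 weeks at implantation. ENZ mice ate normal chow freely and received enzalutamide, an inhibitor of the androgen receptor, at 20 mg/kg by daily gavage. ADF mice were on alternate-day fasting, 24 h without food and then 24 h with free access to it. ADF+ENZ mice received the drug at the same dose on the same fasting schedule, and Vehicle mice ate chow freely without the drug. There were 4 tumours in each group. All groups thus share the MYC-driven line and a site outside the prostate. The sources used here state neither that each tumour came from its own mouse nor at which point of the fasting cycle it was removed, so every p measures the spread between these samples.

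Endothelial cells hold together through VE-cadherin and claudin junctions, and they respond to vascular growth factors through receptor tyrosine kinases, Notch receptors and G protein-coupled receptors. In a growing vessel a leading tip cell makes the Notch ligand Dll4, apelin and endocan, while the cells behind it receive Notch signals and form the stalk. Transcription factors of the ETS family, of which Erg and Fli1 are members here, are known to drive many genes of this cell type, and tumour vessels are built by host endothelial cells rather than by the cancer cells. In RNA from a whole tumour, fewer endothelial cells and less RNA per endothelial cell cannot be told apart.

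The promoters of genes that moved are shown because ETS factors bind a GGAA core and many endothelial genes carry it. RefSeq windows of build GRCm38.p6, from 250 bases before to 50 bases after a gene's start, were available for 17 of the 36 genes. Those of the called genes Notch4 (chr17:34564045-34564344, plus strand), Apln (chrX:48034804-48035103, minus strand), Emcn (chr3:137340828-137341127, plus strand), Cd34 (chr1:194938571-194938870, plus strand) and Clec14a (chr12:58269209-58269508, minus strand) are printed 5′ to 3′. Capitals mark CAGGAA, an ETS-type motif chosen after the windows had been seen, or its reverse complement TTCCTG.
Notch4: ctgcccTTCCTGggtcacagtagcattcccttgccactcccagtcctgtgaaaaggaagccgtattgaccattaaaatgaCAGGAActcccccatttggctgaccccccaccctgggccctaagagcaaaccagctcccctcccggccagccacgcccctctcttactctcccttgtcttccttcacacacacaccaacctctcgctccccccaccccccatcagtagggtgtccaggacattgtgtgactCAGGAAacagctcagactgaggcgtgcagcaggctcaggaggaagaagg
Apln: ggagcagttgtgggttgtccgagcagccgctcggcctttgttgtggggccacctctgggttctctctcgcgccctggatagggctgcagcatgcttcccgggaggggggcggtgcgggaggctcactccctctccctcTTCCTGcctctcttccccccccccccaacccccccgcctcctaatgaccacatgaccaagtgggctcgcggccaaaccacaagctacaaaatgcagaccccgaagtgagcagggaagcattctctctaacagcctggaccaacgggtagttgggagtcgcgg
Emcn: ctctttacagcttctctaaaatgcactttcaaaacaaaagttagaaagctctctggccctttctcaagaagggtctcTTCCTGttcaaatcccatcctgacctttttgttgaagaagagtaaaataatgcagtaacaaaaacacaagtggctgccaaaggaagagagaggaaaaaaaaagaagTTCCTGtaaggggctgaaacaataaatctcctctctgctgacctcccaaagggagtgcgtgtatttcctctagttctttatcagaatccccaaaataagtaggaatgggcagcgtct
Cd34: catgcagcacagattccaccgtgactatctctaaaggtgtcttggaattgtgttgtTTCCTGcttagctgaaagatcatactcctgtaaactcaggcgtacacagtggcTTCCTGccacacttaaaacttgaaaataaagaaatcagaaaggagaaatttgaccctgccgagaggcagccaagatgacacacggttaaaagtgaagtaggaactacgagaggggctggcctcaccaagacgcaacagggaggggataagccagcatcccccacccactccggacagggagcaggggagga
Clec14a: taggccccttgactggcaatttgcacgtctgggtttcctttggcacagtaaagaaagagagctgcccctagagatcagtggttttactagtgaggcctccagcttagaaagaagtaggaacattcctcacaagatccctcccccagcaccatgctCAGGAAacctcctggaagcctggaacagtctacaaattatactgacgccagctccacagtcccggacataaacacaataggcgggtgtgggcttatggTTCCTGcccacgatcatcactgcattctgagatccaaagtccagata
The letters occur 3 times in the Notch4 window, 2 times each in those of Emcn, Cd34 and Clec14a, and 1 time in that of Apln. On either strand, CAGGAA was present in 14 of the 22 windows of these genes (63.6%), belonging to 13 of 17 genes, and in 30.6% of all 32851 windows of the same length. It was in neither window of Tal1. A second ETS-type motif, CGGAAG, was present in 2 of the 22 windows (9.09%) against 16.9% of all windows, and the hypoxia response letters ACGTG in 3 of them (13.6%) against 19.6%. A match is a string of letters in a window, and binding was not measured.

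Each library held between 10072489 and 25505655 counts in genes. ADF libraries differed from the others in make-up: the reads that hit no annotated feature were 25.9% ± 1.45 for ENZ, 32.9% ± 2.73 for ADF, 24.0% ± 2.05 for ADF+ENZ and 25.9% ± 2.25 for Vehicle (SD, n = 4 each). Multiply aligned reads were 4.70% ± 0.414 for ADF and 7.44% ± 0.294 for Vehicle. Each comparison was also fitted with the share of unannotated reads as a covariate, called the unannotated-read fit below. Its values are given where it ends a call among the 36 genes. Over all 18946 tested genes it called 6 in ADF against Vehicle and 43 in ADF+ENZ against ENZ. It called 0 in ADF+ENZ against ADF and 0 for the interaction. A call lost there is thus shared with nearly every gene.

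All 36 genes were measured in every library, with a lowest count of 14 (Icam2), and all 36 passed the filter on low counts and were tested. The defining markers were present throughout: Pecam1, the adhesion molecule CD31, ran from 64.4 to 133 CPM (counts scaled to a common library size by TMM) and Cdh5, which encodes VE-cadherin, from 79.0 to 231 CPM over the 16 libraries. Per kb of exon, a scale on which genes can be compared, Plvap was highest at 39.2 CPM per kb over all libraries, followed by Cdh5 at 33.7, Cd34 at 25.6, Apln at 22.2 and Esm1 at 20.6. Tal1 was lowest at 0.957 CPM per kb, below Sox17 at 1.32 and Myct1 at 1.51. In all, 12 genes reached 10 CPM per kb and 7 were under 2. Exons shared with a neighbouring annotated gene cover 33.4% of Ramp2 (with Vps25), 25.2% of Nos3 (an antisense gene) and 20.4% of Rasip1 (Izumo1), and with no strand setting stated by the sources used here, these 3 values are less certain. Of the called genes, only Cd34 had such an overlap, over 2.03% of its exon bases.

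The 5 genes that most define endothelium as a cell type, Pecam1, Cdh5, Cldn5, Tie1 and Esam, were not called in any of 30 tests (5 genes in 6 comparisons; edgeR, with 1 under an unadjusted p of 0.05, and 0 called by DESeq2). Pecam1 averaged 96.2 ± 27.9 CPM in ENZ tumours, 90.1 ± 10.2 in ADF tumours and 85.6 ± 21.6 in ADF+ENZ tumours, against 97.2 ± 22.0 CPM in Vehicle tumours (SD, n = 4 each). Its log2 fold change against Vehicle was -0.02 (95% interval -0.48 to 0.45) in ENZ, -0.11 (-0.57 to 0.35) in ADF and -0.18 (-0.64 to 0.29) in ADF+ENZ. These intervals leave out a 2-fold change in either direction. Cdh5 had 164, 231, 138 and 96.7 CPM in ENZ, 146, 125, 125 and 134 CPM in ADF, 113, 102, 79.0 and 173 CPM in ADF+ENZ and 216, 112, 191 and 121 CPM in Vehicle tumours. The ADF tumours were close together and the other groups wide, and all overlapped. Its log2 fold change was -0.03 for ENZ, -0.27 for ADF and -0.45 for ADF+ENZ, and for the last the interval reached -1.07. Cldn5, the tight junction protein of endothelium, was more spread, with 37.6, 38.6, 22.4 and 14.7 CPM in ENZ, 21.5, 15.3, 9.45 and 11.04 CPM in ADF, 22.4, 16.7, 20.4 and 38.5 CPM in ADF+ENZ and 25.8, 14.8, 20.9 and 16.6 CPM in Vehicle tumours. All groups overlapped in Cldn5. Its log2 fold change against Vehicle was 0.52 (95% interval -0.23 to 1.28) in ENZ and -0.45 (-1.22 to 0.33) in ADF. In ADF+ENZ it was 0.34 (-0.42 to 1.10), opposite in sign to Cdh5. In ADF+ENZ against ADF, Cldn5 was at 0.79 (edgeR unadjusted p = 0.0465, adjusted p = 0.146). That was the core test under an unadjusted p of 0.05. The summed level of these core genes was 355 ± 110.0 CPM for ENZ, 302 ± 29.2 for ADF and 286 ± 88.5 for ADF+ENZ, against 336 ± 92.8 CPM in Vehicle tumours (SD, n = 4 each).

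**Figure D1:**
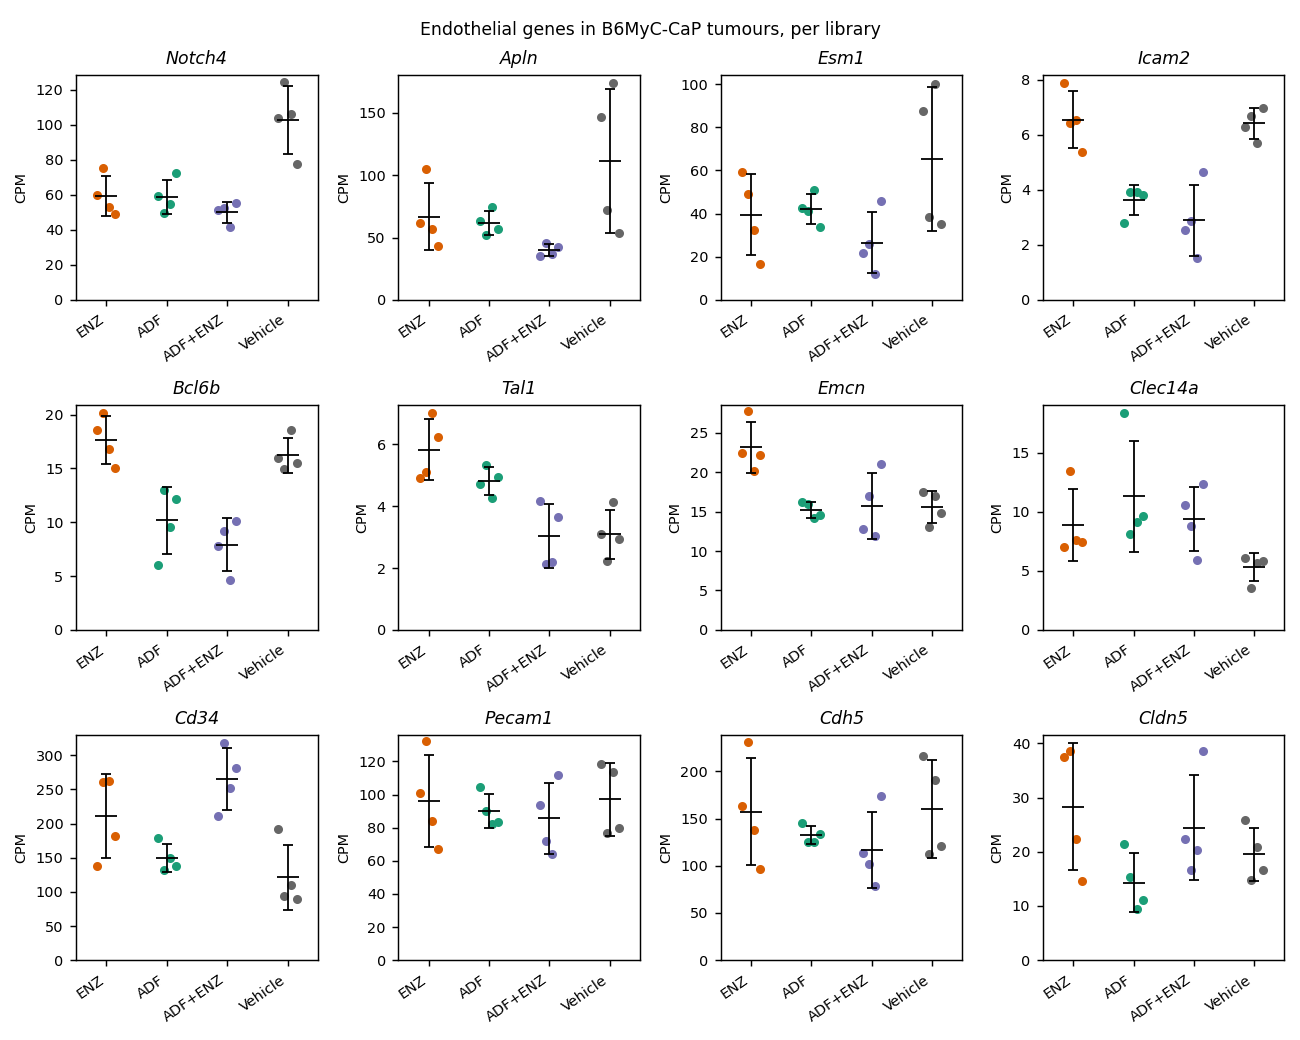
Level of 12 endothelial genes in each library, in TMM-scaled CPM on linear axes that start at 0; points are libraries (4 per group) and bars are the mean and SD. Notch4 sits between 41.3 and 75.1 CPM in all 12 treated tumours and between 77.3 and 124 CPM in Vehicle tumours, while Pecam1, Cdh5 and Cldn5 overlap in all groups.

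Across the list, 8 genes passed an adjusted p of 0.05 in at least 1 of 6 comparisons and 28 passed in none (edgeR's quasi-likelihood test with Benjamini-Hochberg adjustment over 18946 genes; comparisons with Vehicle share its 4 libraries). In ENZ against Vehicle 3 of 36 genes (8.33%) were called, 2 higher and 1 lower, beside 5.43% of all genes. In ADF against Vehicle 3 of 36 (8.33%) were called, 1 higher and 2 lower, beside 9.01% of all genes. In ADF+ENZ against Vehicle 5 of 36 (13.9%) were called, 1 higher and 4 lower, beside 12.5% of all genes. These shares against Vehicle lie near the background, so there the list does not stand apart by its number of calls. Between the treatments the shares lay further from it. In ADF+ENZ against ENZ 3 of 36 (8.33%) were called, all lower, beside 1.09% of all genes. In ADF+ENZ against ADF 1 of 36 (2.78%) was called, which was higher, beside 16.3%. For the interaction, which asks whether fasting acted differently with and without the drug, 1 of 36 was called beside 3.1% of all genes.

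The counts in the comparisons between treatments rest on few libraries, and over all genes most counts moved with them. In ADF+ENZ against ENZ the count was 0 without any of ADF+ENZ 1, ADF+ENZ 3 or ENZ 3, where 45, 20 and 36 of all genes were called against 206 with all libraries, and 1 without ENZ 1, 2 or 4 (111, 120 and 41 of all genes). Where the count was 0, 8 to 10 genes of the list were under an unadjusted p of 0.05. In ADF+ENZ against ADF it was 0 without ADF 2, 3 or 4 or ADF+ENZ 2 or 3 (2 to 5 genes under an unadjusted p of 0.05), where between 1197 and 3205 of all genes were called against 3081, and 2 without ADF+ENZ 1 or 4 (1931 and 2703). In ENZ against Vehicle 1 gene was called without any of ENZ 3, ENZ 4, Vehicle 2 or Vehicle 4 (403, 613, 881 and 716 of all genes against 1028), and in ADF against Vehicle 1 without ADF 4, Vehicle 2 or Vehicle 3 (610, 777 and 713 against 1707). In ADF+ENZ against Vehicle 8 were called without Vehicle 2 (2252 against 2369), and for the interaction 2 without ADF+ENZ 4 or Vehicle 1 (529 and 716 against 587). DESeq2 called more than edgeR throughout. It called 5 genes of the list for ENZ, 7 for ADF and 10 for ADF+ENZ against Vehicle, beside 8.41%, 12.4% and 15.1% of all genes. It called 5 in ADF+ENZ against ENZ, 2 in ADF+ENZ against ADF and 3 for the interaction, beside 3.66%, 19.4% and 7.19% of all genes.

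The median log2 fold change of the 36 genes was 0.24 for ENZ, 0.03 for ADF and -0.16 for ADF+ENZ against Vehicle, where the medians over all tested genes were 0.01, 0.01 and 0.00. In ENZ 25 genes had a positive value, in ADF 19 and in ADF+ENZ 12. The median was -0.40 in ADF+ENZ against ENZ, with 30 of 36 values negative, and -0.23 in ADF+ENZ against ADF, with 28 negative. The limits of a 2-fold change in either direction enclosed the 95% interval of 25 genes for ENZ, of 25 for ADF and of 19 for ADF+ENZ, each against Vehicle.

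**Figure D2:**
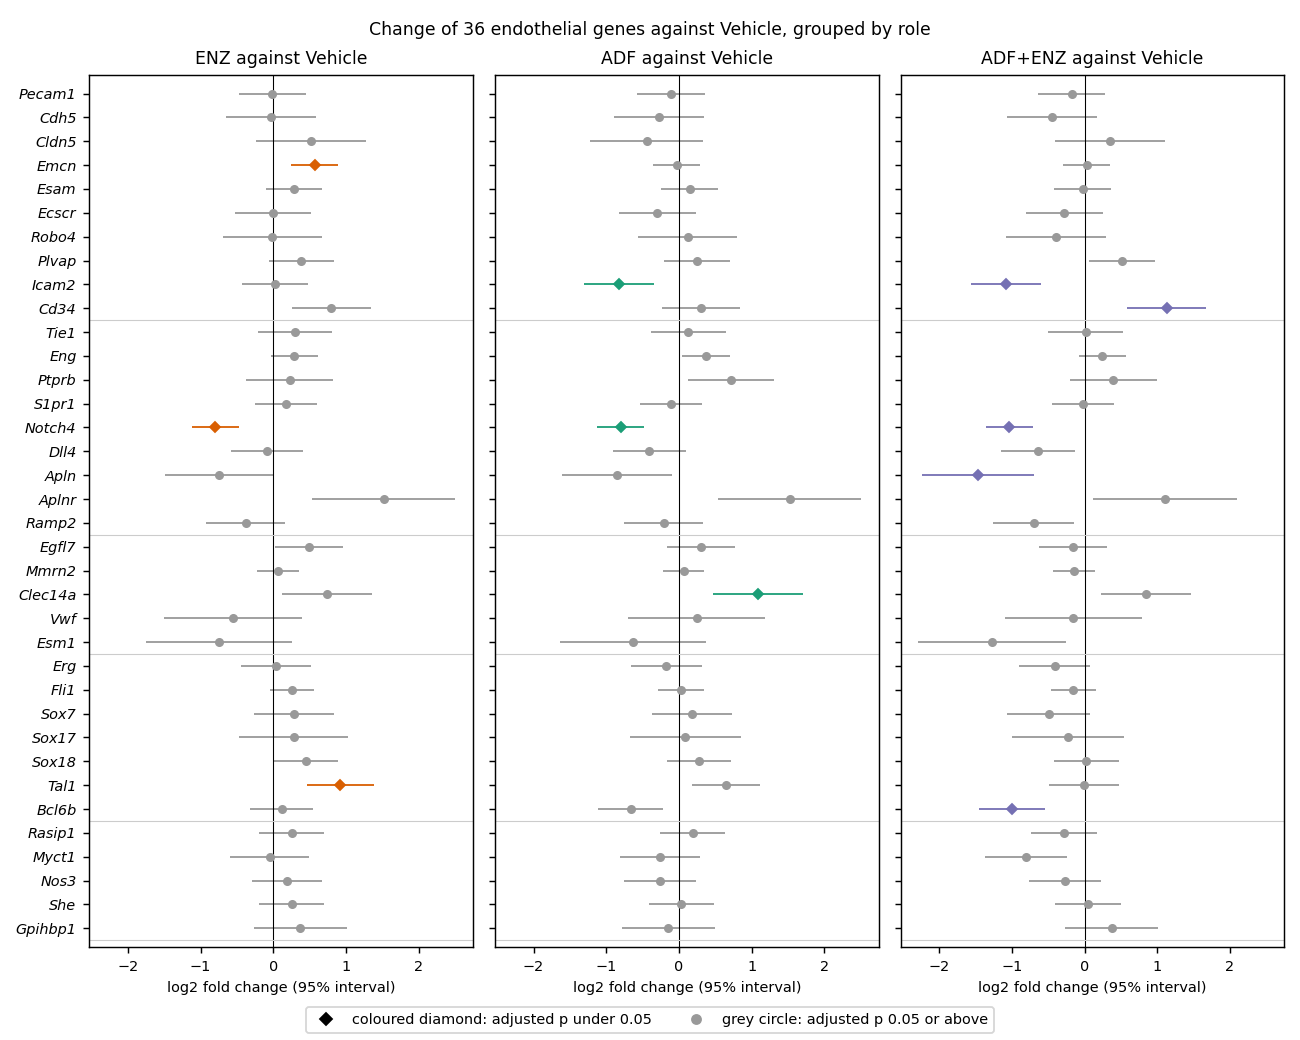
Log2 fold change of the 36 endothelial genes (rows, separated by grey lines into junction and surface proteins, receptors and ligands, matrix and secreted proteins, transcription factors and other proteins) in ENZ, ADF and ADF+ENZ against Vehicle, with 95% intervals, n = 4 libraries per group. Notch4 lies left of 0 as a coloured diamond in all 3 panels, at -0.80, -0.80 and -1.04, while Pecam1 and Tie1 lie near 0.

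Among 10 junction and surface proteins, Emcn was called higher in ENZ, Icam2 lower in both fasted groups and Cd34 higher in ADF+ENZ. Emcn encodes endomucin, a sialomucin of capillary and venous endothelium. It had 22.4, 27.7, 20.2 and 22.2 CPM in ENZ, 16.2, 15.99, 14.2 and 14.6 CPM in ADF, 12.8, 17.0, 11.9 and 21.0 CPM in ADF+ENZ and 17.5, 13.0, 17.0 and 14.8 CPM in Vehicle tumours. All 4 ENZ tumours were above all Vehicle tumours. This was a log2 fold change of 0.57 ± 0.153 (SE; edgeR adjusted p = 0.0349), and in the other groups it was -0.03 in ADF and 0.03 in ADF+ENZ. The call was lost without any of ENZ 2, 3 or 4 or Vehicle 2, 3 or 4, with values of 0.47 to 0.63.

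Icam2, an adhesion ligand for leukocyte integrins that endothelium carries at rest, was the gene of this group with the lowest counts. It had 7.87, 6.42, 6.55 and 5.36 CPM in ENZ, 2.80, 3.91, 3.94 and 3.80 CPM in ADF, 2.53, 2.85, 1.53 and 4.65 CPM in ADF+ENZ and 6.30, 6.69, 5.69 and 6.96 CPM in Vehicle tumours. All 8 fasted tumours were below all 8 tumours of freely fed mice. Against Vehicle, the log2 fold change was -1.08 ± 0.229 (SE; adjusted p = 0.00534) in ADF+ENZ, where it was called in each of 8 fits with 1 library left out, and -0.82 ± 0.227 (adjusted p = 0.0300) in ADF. Against ENZ it was -1.10 ± 0.230 in ADF+ENZ (adjusted p = 0.0275). The ADF call was lost without ADF 1, 3 or 4 or Vehicle 2, 3 or 4 (-0.88 to -0.72) and in the unannotated-read fit (-1.26, adjusted p = 0.264). The difference from ENZ ceased to be called without ADF+ENZ 1 or 3 or any single ENZ library (-1.19 to -0.94), with only the 2 groups in the fit and in the unannotated-read fit (-0.99, adjusted p = 0.0812). Leukocytes also carry Icam2, and of 5 leukocyte genes 2 fell in ADF+ENZ against Vehicle (Ptprc by 0.58 and Cd53 by 0.42 on the log2 scale) and 0 in ADF (edgeR; 1 under an unadjusted p of 0.05, and 0 called by DESeq2). Their summed level ran from 309 to 382 CPM in ADF+ENZ, from 317 to 434 CPM in ADF and from 406 to 480 CPM in Vehicle tumours, none of the 5 was at 0, and their part in the Icam2 result was not tested.

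Cd34, a sialomucin of endothelium that blood progenitors and some fibroblasts also carry, had 138, 261, 263 and 182 CPM in ENZ, 179, 132, 150.0 and 138 CPM in ADF, 211, 318, 252 and 281 CPM in ADF+ENZ and 191, 94.4, 109.7 and 89.4 CPM in Vehicle tumours. The 4 ADF+ENZ tumours were above all ADF and Vehicle tumours but overlapped with ENZ. The log2 fold change in ADF+ENZ was 1.13 ± 0.253 (SE; edgeR adjusted p = 0.0116) against Vehicle, called in each of 8 fits with 1 library left out. Against ADF it was 0.83 ± 0.252 (adjusted p = 0.0385), no longer called without ADF 2, 3 or 4 or ADF+ENZ 2, 3 or 4 (0.73 to 0.85), without a filter on low counts (0.81) and in the unannotated-read fit (0.82). In ENZ it was 0.80 ± 0.251 (adjusted p = 0.0823; DESeq2 called it, adjusted p = 0.00935). Of 6 fibroblast genes, Pdgfra rose in ADF+ENZ against Vehicle by 0.61 ± 0.161 (adjusted p = 0.0200). The 6 fibroblast genes summed to between 11390 and 13358 CPM in ADF+ENZ and between 10912 and 12700 CPM in Vehicle tumours, none was at 0, and their part in the Cd34 result was not tested.

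The other 7 junction and surface genes, 4 of them core genes, were not called in any of 42 tests (edgeR; 2 under an unadjusted p of 0.05, and 0 called by DESeq2). Plvap, which forms the diaphragms of fenestrae and caveolae, averaged 82.8 ± 21.1 CPM in ENZ, 75.3 ± 18.0 in ADF, 90.3 ± 24.2 in ADF+ENZ and 63.4 ± 8.12 CPM in Vehicle tumours (SD, n = 4 each). Its log2 fold change was 0.38, 0.25 and 0.51 in ENZ, ADF and ADF+ENZ. Esam, Ecscr and Robo4, junction and guidance proteins of endothelium, lay between -0.40 and 0.28 against Vehicle in all 3 treatments.

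Of 9 receptors and ligands, Notch4 was called lower in all 3 treatments and Apln lower in ADF+ENZ. Notch4, the Notch receptor found mainly in endothelium, had 59.7, 75.1, 53.2 and 49.1 CPM in ENZ, 59.3, 49.7, 54.6 and 72.2 CPM in ADF, 51.3, 52.4, 41.3 and 55.1 CPM in ADF+ENZ and 104, 124, 106 and 77.3 CPM in Vehicle tumours. Each of the 12 treated tumours was below each Vehicle tumour. Against Vehicle, Notch4 had a log2 fold change of -0.80 ± 0.153 in ENZ (SE; edgeR adjusted p = 0.00566), -0.80 ± 0.154 in ADF (adjusted p = 0.00511) and -1.04 ± 0.155 in ADF+ENZ (adjusted p = 0.000627). All 3 calls held in each of 8 fits with 1 library left out. In the unannotated-read fit the ADF call was lost (-0.93, adjusted p = 0.264). ADF+ENZ differed from ENZ by -0.24 ± 0.155 and from ADF by -0.23 ± 0.155, neither called. Genes of other cell types fell in the same 3 groups: in the mural cell list 1 of 12 tested genes (Ndufa4l2, by 1.55, 1.73 and 1.86 on the log2 scale) and in the tumour epithelium list 1 of 4 (Krt19, which was also lower in ADF+ENZ against ADF). Krt19 had few counts: 3, 1, 6 and 2 in ENZ, 2, 16, 10 and 4 in ADF and 1, 0, 0 and 0 in ADF+ENZ. Vehicle tumours had 104, 17, 14 and 34 counts, and ADF 2 (0.948 CPM) was above Vehicle 3 (0.916 CPM). DESeq2 called 0 of these 4 genes in ENZ against Vehicle. The mural genes summed to 615 to 778 CPM in ENZ, 622 to 793 in ADF, 573 to 835 in ADF+ENZ and 585 to 742 CPM in Vehicle tumours. The tumour epithelium genes summed to 424 to 769 CPM in ENZ, 517 to 665 in ADF, 297 to 884 in ADF+ENZ and 620.2 to 831 CPM in Vehicle tumours. No gene of either list was at 0 in all libraries, and their part in the Notch4 result was not tested.

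Dll4, a Notch ligand of tip cells and arteries, was not called. It averaged 26.3 ± 5.08 CPM in ENZ, 21.0 ± 3.49 in ADF, 17.7 ± 4.67 in ADF+ENZ and 27.9 ± 9.66 CPM in Vehicle tumours (SD, n = 4 each), and its log2 fold change in ADF+ENZ was -0.64 ± 0.237 (adjusted p = 0.0889; 0.0334 in DESeq2).

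Apln encodes apelin, a peptide that sprouting endothelium secretes, and Aplnr its receptor. Apln had 61.9, 105, 56.7 and 43.0 CPM in ENZ, 63.2, 52.1, 74.6 and 57.1 CPM in ADF, 35.5, 46.0, 36.9 and 42.2 CPM in ADF+ENZ and 147, 71.8, 174 and 53.4 CPM in Vehicle tumours. The ADF+ENZ tumours were narrowly grouped and below all Vehicle tumours, which fell into a low pair (Vehicle 2 and 4) and a high pair (Vehicle 1 and 3). For ADF+ENZ the log2 fold change was -1.47 ± 0.356 (SE; adjusted p = 0.0184), lost without ADF+ENZ 1 (-1.41), ADF+ENZ 3 (-1.44) or Vehicle 3 (-1.17) and with only the 2 groups in the fit (-1.48, adjusted p = 0.0588). In ENZ and ADF the values were -0.74 (adjusted p = 0.256) and -0.85 (adjusted p = 0.141); without Vehicle 4 the ADF value was -1.08 and was called. Aplnr had 22.2, 17.9, 30.8 and 27.7 CPM in ENZ, 13.8, 42.5, 16.7 and 25.4 CPM in ADF, 14.6, 18.6, 7.998 and 31.2 CPM in ADF+ENZ and 11.1, 10.6, 3.53 and 9.06 CPM in Vehicle tumours. The ENZ and ADF tumours were all above the Vehicle tumours, and yet the gene was not called: its log2 fold change was 1.52 ± 0.455 in ENZ (adjusted p = 0.0729) and 1.52 ± 0.456 in ADF (adjusted p = 0.0541). DESeq2 called both (adjusted p = 0.0155 and 0.0145).

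The 7 receptors and ligands other than Notch4 and Apln had 0 calls in 42 tests (edgeR; 9 under an unadjusted p of 0.05, and 6 called by DESeq2, 3 of them for Aplnr). Tie1, an orphan receptor that works with Tek, had log2 fold changes of 0.30, 0.13 and 0.01 in ENZ, ADF and ADF+ENZ, and Eng, a co-receptor for ligands of the TGF-beta family, of 0.29, 0.37 and 0.24. Ptprb, a phosphatase that dampens Tek signalling, averaged 70.9 ± 16.3 CPM in ENZ, 99.5 ± 35.4 in ADF, 79.2 ± 17.8 in ADF+ENZ and 60.5 ± 19.4 CPM in Vehicle tumours (SD, n = 4 each), with 152 CPM in ADF 1; DESeq2 called it in ADF (0.71, adjusted p = 0.0361). S1pr1, the sphingosine 1-phosphate receptor that keeps vessels stable, lay between -0.11 and 0.18. Ramp2, the partner of the adrenomedullin receptor, was at -0.38, -0.21 and -0.70 (adjusted p = 0.444, 0.647 and 0.0909; DESeq2 called the last, adjusted p = 0.0271).

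Among 4 matrix and secreted proteins and the surface protein Clec14a, this last, a lectin that binds the matrix protein multimerin 2, was called higher in ADF. It had 6.98, 13.4, 7.63 and 7.47 CPM in ENZ, 18.3, 8.11, 9.13 and 9.68 CPM in ADF, 10.5, 8.76, 5.92 and 12.3 CPM in ADF+ENZ and 6.12, 3.54, 5.69 and 5.86 CPM in Vehicle tumours. All ENZ and ADF tumours were above all Vehicle tumours, but in each of these 3 groups a single library stood away from the other 3. In ADF the log2 fold change was 1.09 ± 0.292 (SE; edgeR adjusted p = 0.0300), and 0.76 without ADF 1. The call was lost without ADF 1, ADF 4, Vehicle 2 or Vehicle 3 (0.76 to 1.15), without a filter on low counts (1.06, adjusted p = 0.0847) and in the unannotated-read fit (1.10, adjusted p = 0.464). In ENZ it was 0.74 (adjusted p = 0.157) and in ADF+ENZ 0.84 (adjusted p = 0.0684; 0.0300 in DESeq2). Mmrn2, which encodes multimerin 2 itself, varied little and lay at 0.06, 0.06 and -0.15.

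Esm1 encodes endocan, a proteoglycan that tip cells secrete. It had 59.5, 48.9, 32.4 and 16.6 CPM in ENZ, 42.5, 41.2, 51.0 and 33.8 CPM in ADF, 21.8, 26.0, 12.2 and 45.7 CPM in ADF+ENZ and 87.6, 38.2, 100.1 and 35.4 CPM in Vehicle tumours. As for Apln, the Vehicle tumours formed a high and a low pair, made of the same libraries. The summed core genes were split likewise. They had 437 and 393 CPM in Vehicle 1 and 3, and 247 and 268 CPM in Vehicle 2 and 4. The log2 fold change of Esm1 in ADF+ENZ was -1.27 ± 0.471 (edgeR adjusted p = 0.0970) and was not called. DESeq2 called it (adjusted p = 0.0391), and so did edgeR without ADF+ENZ 4 (-1.69). Vwf, the von Willebrand factor that tethers platelets, averaged 70.3 ± 44.0 CPM in ENZ, 122 ± 51.5 in ADF, 91.6 ± 35.8 in ADF+ENZ and 103 ± 31.5 CPM in Vehicle tumours (SD, n = 4 each), with no call. Egfl7, a secreted vessel protein and host of miR-126, was at 0.50, 0.30 and -0.16 in ENZ, ADF and ADF+ENZ, and DESeq2 called it lower in ADF+ENZ against ENZ (-0.66, adjusted p = 0.0490).

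Of 7 transcription factors, Tal1 was called higher in ENZ and Bcl6b lower in ADF+ENZ. All 7 had negative values in ADF+ENZ against ENZ, as had 30 of all 36 genes, so the factors do not stand apart by sign. Tal1, a basic helix-loop-helix factor of blood and endothelial cells, had 4.92, 5.12, 7.03 and 6.23 CPM in ENZ, 4.72, 5.33, 4.25 and 4.95 CPM in ADF, 4.17, 2.12, 2.19 and 3.64 CPM in ADF+ENZ and 3.09, 2.23, 4.12 and 2.93 CPM in Vehicle tumours. The 8 tumours under either treatment alone were above all tumours under both and above all Vehicle tumours. The log2 fold change was 0.92 ± 0.221 in ENZ (SE; edgeR adjusted p = 0.0189) and 0.64 ± 0.224 in ADF (adjusted p = 0.0741; DESeq2 called it, adjusted p = 0.0481), against -0.01 in ADF+ENZ. ADF+ENZ differed from ADF by -0.65 ± 0.227 (adjusted p = 0.0553; DESeq2 called it, adjusted p = 0.0383). The interaction was -1.57 ± 0.317 (adjusted p = 0.0162) and was called in each of 16 fits with 1 library left out, but not in the unannotated-read fit (-1.63, adjusted p = 0.818), which called 0 of all 18946 genes for the interaction. The ENZ call was lost without ENZ 3, ENZ 4, Vehicle 2 or Vehicle 4 (0.80 to 0.90). Between ADF+ENZ and ENZ the difference was -0.93 ± 0.224 (adjusted p = 0.0491), which stayed called in 1 of 8 such fits, the one without ADF+ENZ 4. It was also lost with only the 2 groups in the fit (adjusted p = 0.114), with the core genes' level as a covariate and in the unannotated-read fit (adjusted p = 0.102). Red cell precursors and megakaryocytes also use Tal1, and of the 4 tested genes of the erythroid list and the 4 of the platelet list 0 were called in ENZ against Vehicle (edgeR; 0 under an unadjusted p of 0.05, and 0 called by DESeq2). The erythroid genes summed to 6.89 to 52.3 CPM in ENZ and 10.3 to 22.4 CPM in Vehicle tumours, and the platelet genes to 9.47 to 17.5 CPM in ENZ and 11.1 to 41.7 CPM in Vehicle tumours. The median log2 value of the erythroid genes was 0.68 for ENZ, -0.16 for ADF and -0.02 for ADF+ENZ against Vehicle. It was -0.67 for ADF+ENZ against ENZ, 0.14 for ADF+ENZ against ADF and -0.60 for the interaction. The platelet medians were -0.33, -0.40, -1.08, -0.32, -0.86 and -0.22 in the same order. Of 24 erythroid tests 0 were under an unadjusted p of 0.05 in edgeR, and of 24 platelet tests 6 were. Signs of medians over 4 genes therefore cannot tell whether blood cells had a part in the Tal1 result. The part of both lists in the Tal1 result was not tested.

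Bcl6b, a zinc finger repressor, had 18.6, 20.1, 16.8 and 14.99 CPM in ENZ, 6.08, 13.0, 9.53 and 12.2 CPM in ADF, 7.76, 9.23, 4.60 and 10.1 CPM in ADF+ENZ and 15.9, 14.9, 18.6 and 15.5 CPM in Vehicle tumours. As for Icam2, all 8 fasted tumours lay below all 8 others. The log2 fold change in ADF+ENZ was -1.001 ± 0.215 against Vehicle (SE; edgeR adjusted p = 0.00625), called in each of 8 fits with 1 library left out, and -1.12 ± 0.215 against ENZ (adjusted p = 0.0229). The second call was lost without ADF+ENZ 1 (-1.10), ADF+ENZ 3 (-0.96) or ENZ 3 (-1.14) and in the unannotated-read fit (-0.99, adjusted p = 0.0660). In ADF against Vehicle Bcl6b was at -0.66 ± 0.212 and missed the threshold (adjusted p = 0.0563), which it passed in DESeq2 (adjusted p = 0.0196).

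Neither ETS factor was called: Erg was at 0.04, -0.18 and -0.41 in ENZ, ADF and ADF+ENZ, and Fli1, which leukocytes also express, at 0.26, 0.03 and -0.16. The SOX factors of vessel formation were not called either (edgeR; the 5 uncalled factors had 7 of 30 tests under an unadjusted p of 0.05, and 0 called by DESeq2). Sox7 was at 0.28, 0.18 and -0.50, Sox17 at 0.28, 0.09 and -0.23, and Sox18 at 0.45, 0.27 and 0.02.

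None of the 5 remaining genes was called in any comparison (edgeR; 5 of 30 tests were under an unadjusted p of 0.05, and DESeq2 called Myct1 in ADF+ENZ against Vehicle). Nos3, the endothelial nitric oxide synthase, averaged 7.76 ± 1.34 CPM in ENZ, 5.63 ± 1.25 in ADF, 5.53 ± 1.48 in ADF+ENZ and 6.80 ± 2.25 CPM in Vehicle tumours (SD, n = 4 each). Gpihbp1, which holds lipoprotein lipase on capillaries, was at 0.37, -0.14 and 0.37. Rasip1, a Rap1 effector needed for vessel lumens, was at 0.25, 0.19 and -0.28, and the adaptor She at 0.25, 0.03 and 0.05. Myct1 was at -0.05, -0.26 and -0.80 (adjusted p = 0.0556 for the last).

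The tumours of a group differed from each other in much the same direction for most of the list. ADF+ENZ 4 was the highest library of its group for 30 of 36 genes and ADF+ENZ 3 the lowest for 29. ENZ 2 was highest for 27 and ENZ 4 lowest for 23. In ADF, the group with the narrowest range, ADF 1 was highest for 17 and ADF 3 lowest for 17. Vehicle 1 was highest for 22 and Vehicle 2 lowest for 25. The summed core level spanned 237 to 497 CPM for ENZ, 276 to 344 for ADF, 201 to 407 for ADF+ENZ and 247 to 437 CPM for Vehicle tumours. The ranges within ENZ, ADF+ENZ and Vehicle tumours were each wider than the range of the group means, 286 to 355 CPM, while that of ADF tumours was about as wide.

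**Figure D3:**
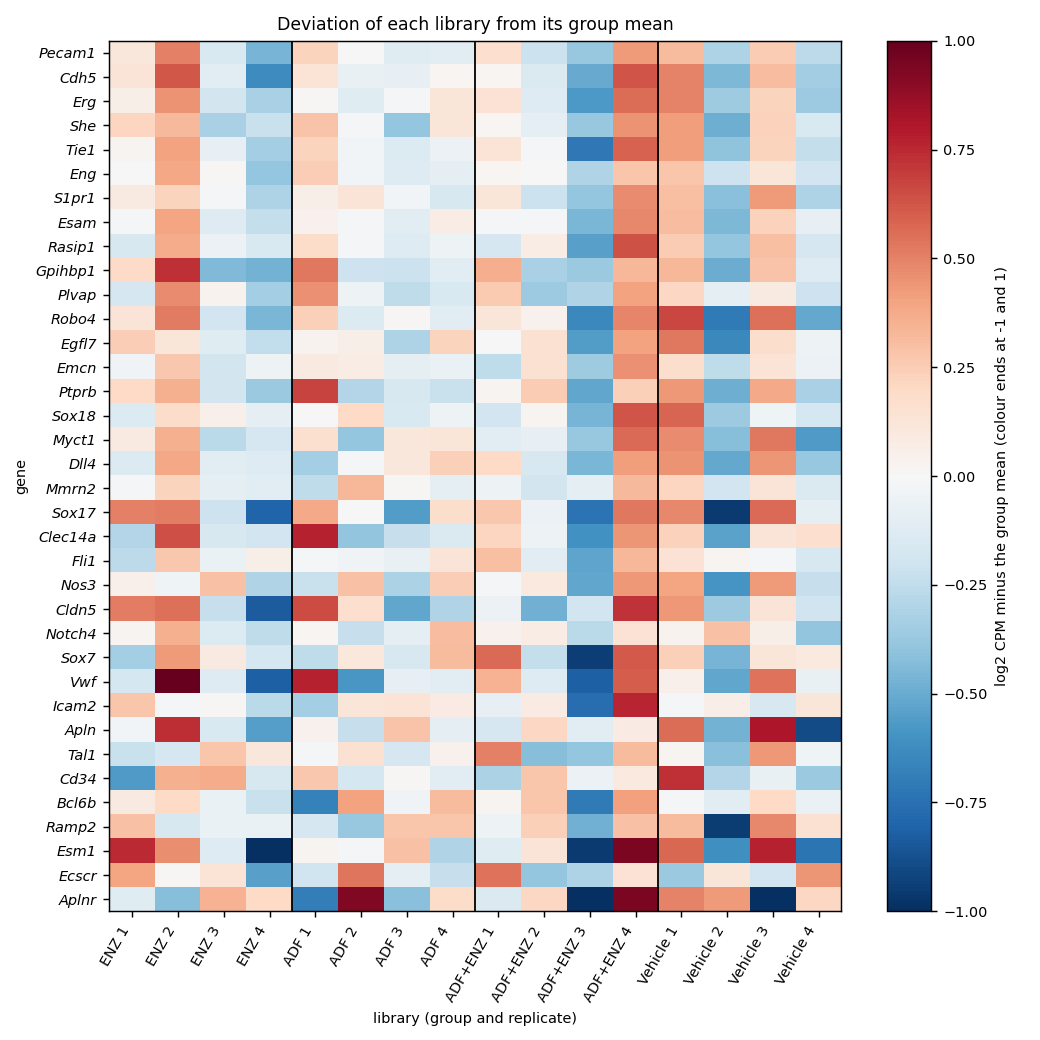
Deviation of each library (columns, by group) from its group mean for the 36 endothelial genes (rows), in log2 CPM, with red above and blue below the mean and colours ending at -1 and 1. Rows run from the smallest spread relative to the core genes (Pecam1, 0.0946) at the top to the largest (Aplnr, 0.754) at the bottom; ADF+ENZ 4 is red and ADF+ENZ 3 blue along most rows.

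Set against the core genes of the same library, most of the list varied less. The within-group SD of log2 CPM had a median of 0.371 over the 36 genes, and of 0.280 once the mean of the core genes was subtracted (for a core gene, the mean of the other 4). It was smaller for 26 genes and larger for 10. Pecam1 had an SD of 0.330 before and 0.0946 after the subtraction, Cdh5 0.427 and 0.125, and Erg 0.367 and 0.143. Notch4 went against this, with 0.244 before and 0.329 after, and so did Cd34, Tal1, Icam2, Bcl6b, Ecscr, Ramp2, Mmrn2, Fli1 and Aplnr. Of the 8 called genes, 5 are thus among the 10 whose spread did not shrink.

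Relative to the core genes, Notch4 was at 0.12 ± 0.180 in ENZ, 0.41 ± 0.298 in ADF, 0.18 ± 0.301 in ADF+ENZ and 1.11 ± 0.470 in Vehicle tumours (log2 difference, SD, n = 4 each). Apln was at 0.23 ± 0.177, 0.48 ± 0.334 and -0.14 ± 0.425 in ENZ, ADF and ADF+ENZ, against 1.08 ± 0.521 in Vehicle. Esm1 was at -0.60 ± 0.481, -0.08 ± 0.337 and -0.89 ± 0.415 in the same order, against 0.32 ± 0.456 in Vehicle. Plvap was at 0.59 ± 0.230, 0.75 ± 0.137 and 0.996 ± 0.211, against 0.43 ± 0.220 in Vehicle. All ADF+ENZ tumours were above all Vehicle tumours in Plvap and below them in Notch4, Apln and Esm1 on this scale. Such a gap was not particular to these genes. The ADF+ENZ tumours were also all lower in Cdh5, Erg, Dll4, Myct1, Icam2 and Bcl6b, and all higher in Cldn5, Ptprb, Gpihbp1, Cd34 and Clec14a. Cdh5 and Cldn5 are core genes themselves. The share of all genes with such a gap was not taken.

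**Figure D4:**
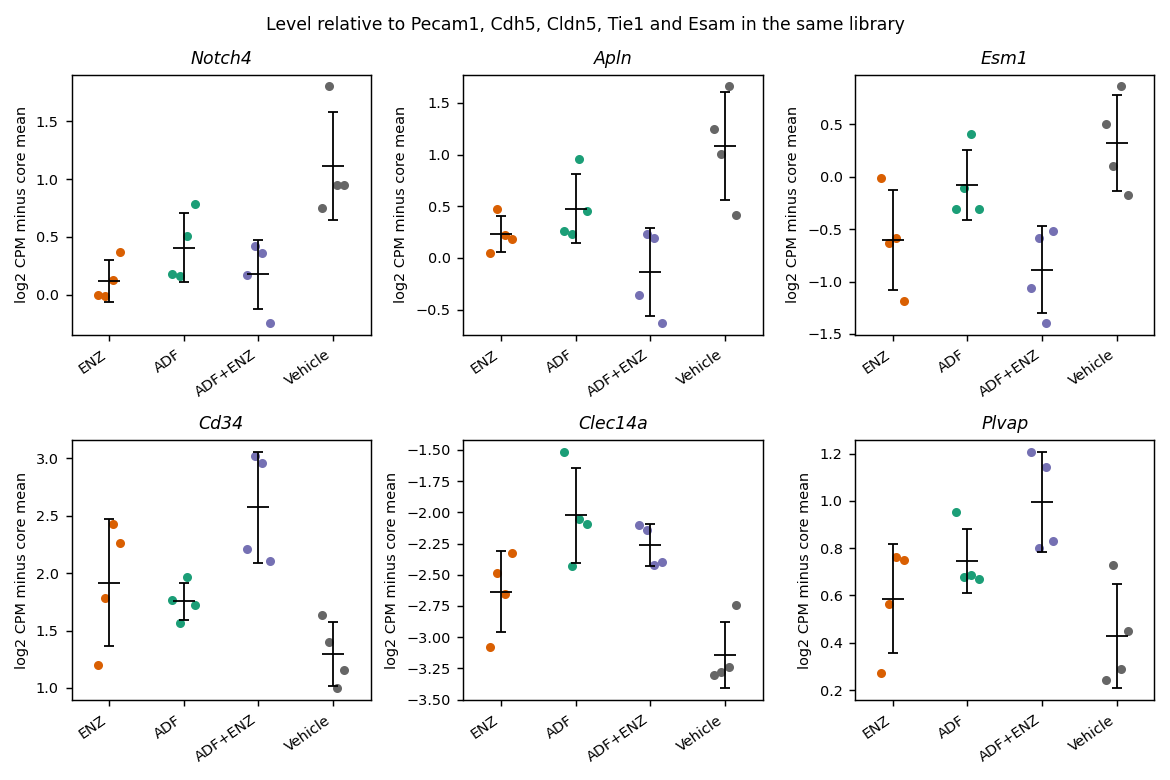
Level of 6 endothelial genes relative to the mean of Pecam1, Cdh5, Cldn5, Tie1 and Esam in the same library (log2 difference; axes do not start at 0); points are libraries, bars the mean and SD, n = 4 per group. In ADF+ENZ, Notch4, Apln and Esm1 lie below all Vehicle tumours and Cd34, Clec14a and Plvap above them.

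A fit with the core level as a covariate, chosen after the data were seen and using a measure that the treatments could themselves move, called more of the list in 5 comparisons and fewer in ADF+ENZ against ENZ (2 in place of 3, beside 0.771% of all genes). Of the 31 other genes it called 5 for ENZ, 5 for ADF and 13 for ADF+ENZ against Vehicle, beside 6.14%, 10.1% and 12.6% of all genes. A covariate made of endothelial genes lowers the SE of genes that vary with it. In ADF+ENZ against Vehicle the SE of Erg went from 0.232 to 0.126, while calls over all genes went from 2369 to 2386. The share of all genes is therefore not a like background for the list in this fit. In ADF+ENZ 6 were higher, among them Plvap (0.55 ± 0.116, adjusted p = 0.00548), Cd34 (1.21) and Clec14a (0.88). The 7 that were lower were Notch4 (-1.02), Icam2 (-1.11), Bcl6b (-0.99), Apln (-1.28), Esm1 (-1.16), Myct1 (-0.75) and Dll4 (-0.58 ± 0.165, adjusted p = 0.0297). In ADF it called Eng (0.44) and Ptprb (0.82) higher beside Clec14a, and in ENZ it called Esm1 (-1.04) and Vwf (-0.97) lower beside Notch4. Of the core genes themselves Cdh5 was called in ADF+ENZ (-0.35, adjusted p = 0.00652), where it also enters the covariate. The count moved most in ADF+ENZ against ADF, to 11 of 36 beside 17.5% of all genes. Higher there were Cldn5 (0.75), Gpihbp1 (0.50) and Cd34 (0.84), and lower were Robo4 (-0.59 ± 0.134, adjusted p = 0.00867), Rasip1, Egfl7, Sox7, Cdh5, Myct1, Esm1 and Tal1, of which Cldn5 and Cdh5 are core genes. For the interaction 2 were called, beside 2.44% of all genes.

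Other endothelial genes also moved in both directions. Of 27 further endothelial genes, all tested, 4 were higher and 1 lower in ENZ against Vehicle, beside 5.43% of all genes called. In ADF 3 were higher and 2 lower, beside 9.01%, and in ADF+ENZ 2 were higher and 1 lower, beside 12.5%. In all, 5, 5 and 3 of the 27 were called, and the medians were 0.18, 0.14 and -0.17. Cyyr1, a gene enriched in endothelium, averaged 15.5 ± 3.504 CPM in ENZ, 19.0 ± 3.99 in ADF, 20.5 ± 4.69 in ADF+ENZ and 9.26 ± 1.01 CPM in Vehicle tumours (SD, n = 4 each), and was called higher in all 3 treatments (0.75, 1.04 and 1.16). ENZ tumours also had higher Tek (0.85), the receptor of the angiopoietins, and Grrp1 (1.13), and lower Heg1 (-0.46), a junction organiser. In ADF Grrp1 (1.11) was higher and Tm4sf1 (-0.47) lower. In ADF+ENZ Rhoj, a small GTPase of endothelium, was higher against Vehicle (0.60), ENZ (0.66) and ADF (0.50), and Tm4sf1 was lower against Vehicle (-0.49). The interaction was called for Tspan18 (-1.32) and Heg1 (0.58). Per kb of exon, Tm4sf1 was at 101 and Heg1 at 41.3 CPM in Vehicle tumours, above Cdh5 at 38.1. Which cells of the tumour carried Tm4sf1 and Heg1 was not tested.

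Of 8 sprouting genes, Pdgfb, the ligand by which endothelium recruits pericytes, and Kcne3, a channel subunit of tip cells, were called lower in ADF+ENZ (-0.90 ± 0.185, adjusted p = 0.00517, and -1.10 ± 0.276, adjusted p = 0.0145). The list's median was -0.57 in ADF+ENZ, -0.55 in ADF and -0.19 in ENZ, and in ADF and ENZ 0 of 8 were called (edgeR; 4 in ADF and 0 in ENZ under an unadjusted p of 0.05, and 3 and 0 called by DESeq2). Kcne3 was also lower in ADF+ENZ against ENZ (-1.39). Of 8 tested arterial genes, Gja5, a gap junction protein, was higher in ADF (1.34) and Efnb2, an ephrin of arteries, in ADF+ENZ (0.60). Gja5 had only 22, 60, 11 and 29 counts in ADF and 23, 15, 4 and 14 in Vehicle tumours, and the CPM of the groups overlapped. Of 5 tested venous and activated endothelial genes, Vcam1, an adhesion molecule of inflamed endothelium that other stromal cells also make, was lower in ENZ (-0.99) and ADF+ENZ (-1.002), and Ephb4, an ephrin receptor of veins, was higher in ADF+ENZ against Vehicle (0.27) and against ADF (0.26). Per kb of exon, Efnb2 was at 92.8 and Ephb4 at 64.2 CPM in Vehicle tumours, above Cdh5 at 38.1. Which cells of the tumour carried Efnb2 and Ephb4 was not tested. Of 3 tested lymphatic genes 0 were called in any comparison (edgeR; 0 under an unadjusted p of 0.05, and 0 called by DESeq2). Beside these lists, edgeR called 5.43%, 9.01% and 12.5% of all genes in ENZ, ADF and ADF+ENZ against Vehicle.

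Among 14 genes of the VEGF and angiopoietin pathway, the placental growth factor Pgf was lower in ENZ, ADF and ADF+ENZ against Vehicle (-1.66, -1.83 and -1.79), and Vegfa was called lower in ADF (-0.89 ± 0.114, adjusted p = 0.000263), with 166 ± 11.9 CPM in ADF and 308 ± 55.3 CPM in Vehicle tumours (SD, n = 4 each). Vegfa was higher in ADF+ENZ than in ADF (0.64), and its interaction was called (0.83, adjusted p = 0.0128), as was that of Pgf (1.71). The VEGF receptor Kdr was at 0.10, 0.00 and -0.46 with no call, and Flt1, the receptor that binds both ligands, at -0.17, -0.53 (called in ADF) and -0.28. In ADF+ENZ against ADF Nrp1 (-0.51) and Vegfd (-0.76) were lower.

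In 9 lists of other cell types together, 3 of 46 tested genes (6.52%) were called for ENZ, 4 (8.7%) for ADF and 7 (15.2%) for ADF+ENZ against Vehicle, shares near those of all genes given above. Beside the leukocyte, fibroblast, mural, tumour epithelium, erythroid and platelet genes already described, Ppbp of the platelet list was lower in ADF+ENZ against Vehicle (-2.47) and Itga2b in ADF+ENZ against ADF (-0.82). Ppbp had only 5, 1, 4 and 7 counts in ADF+ENZ and 56, 10, 33 and 7 in Vehicle tumours, and the CPM of the groups overlapped. Of 5 macrophage genes Cd68 was lower in ENZ (-0.48) and ADF (-0.44) and Adgre1 in ADF+ENZ (-0.63), and the interaction was called for Cd68 (0.68). Of the fibroblast genes Dcn was lower in ADF (-0.43), and Pdgfra higher in ADF+ENZ against ENZ (0.72). Of 5 tested skeletal muscle genes and 1 tested adipocyte gene 0 were called in any comparison (edgeR; 1 and 0 tests under an unadjusted p of 0.05, and 0 called by DESeq2). Of the calls in these other lists, those of Pgf in all 3 treatments, Cyyr1 in ADF and ADF+ENZ, Heg1 and Krt19 in ENZ, and Pdgfb, Kcne3, Vcam1, Ndufa4l2 and Krt19 in ADF+ENZ, each against Vehicle, held whichever library was left out. So did those of Vegfa in ADF, in ADF+ENZ against ADF and for the interaction, and of Nrp1 in ADF+ENZ against ADF, and each of the others was lost without at least 1 library. The unannotated-read fit called 0 of all 18946 genes in ADF+ENZ against ADF and for the interaction. Every call of these lists in those comparisons, including those of Vegfa and Nrp1, was therefore lost in it.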

How the data were processed

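RNA-seq of 16 tumours was used as the raw counts per gene that the authors deposited. Per the submitters' processing notes, Trim Galore, HISAT2, featureCounts and DESeq2 were used, with no versions, and the builds mm39 and GRCh38 are named without a role. Of the table, 55414 rows are gene IDs and 5 carry the names htseq-count gives to unassigned reads, which were kept out of tests. Symbols (52081 IDs), exon lengths and overlaps came from GENCODE M21 and promoter windows from RefSeq GRCm38.p6, both older than mm39. The IDs left unnamed hold 3.51% of the counts in genes.

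All 16 libraries entered 1 robust quasi-likelihood fit in edgeR 4.0.16 under R 4.3.3, with TMM and filterByExpr (minimum count 10, total 15), which left 18946 genes. P-values were adjusted by Benjamini-Hochberg in each comparison and called under 0.05. SE is the log2 fold change over the square root of F, and the prior count for log2 CPM was 2. Alternatives were run in edgeR, DESeq2 1.42.0 and limma 3.58.1. The edgeR fit was also run on simulated counts with changes planted in ADF+ENZ. Genes were drawn independently there, while many endothelial genes vary together by library. That run therefore does not show how many true changes among the 36 genes were missed. Figures used matplotlib 3.10.9 in Python 3.11.15. The genes, lists and tests were chosen with earlier results of these data known. All 36 genes are given. Values per library are shown for those past the threshold, for Pecam1, Cdh5, Cldn5, Esm1 and Apln, and for Aplnr, which was chosen after its values were seen. From each other list up to 4 genes past the threshold with the smallest p are named in each comparison, and Vegfa, Kdr and Flt1 whatever their values.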

Additional observations from a re-analysis of the deposited data

Results flagged for a closer look

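Of 144 combinations of gene and group, 10 held a library whose gap to the other 3 was large for the range of the group, where chance gives about 1 in 20. ADF 1 was such a library for 4 genes: Ptprb at 152 CPM where the others ran from 78.0 to 85.5, Clec14a at 18.3 CPM (others 8.11 to 9.68), Gpihbp1 at 44.1 CPM (26.2 to 28.2) and Icam2, where it was low, at 2.80 CPM (3.80 to 3.94). ENZ 2 was high for Clec14a at 13.4 CPM (others 6.98 to 7.63), Dll4 at 33.9 CPM (23.6 to 24.0) and Rasip1 at 10.6 CPM (7.34 to 7.87). ADF 2 was high for Ecscr at 19.5 CPM (11.4 to 12.5) and low for Myct1 at 3.20 CPM (4.57 to 4.72). Vehicle 2 was low for Clec14a at 3.54 CPM (5.69 to 6.12), so Clec14a had such a library in 3 groups.

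The interaction was called for Tal1 in edgeR, at -1.57 on the log2 scale, but not in the unannotated-read fit, which called 0 of all 18946 genes there. It was the call of 1 of 36 genes (2.78%), beside 3.1% of all genes.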

How the results depend on the processing

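DESeq2 called 5 genes of the list for ENZ, 7 for ADF and 10 for ADF+ENZ against Vehicle, 5 in ADF+ENZ against ENZ, 2 in ADF+ENZ against ADF and 3 for the interaction, where over all genes it called 1594, 2358, 2852, 693, 3680 and 1363, against 1028, 1707, 2369, 206, 3081 and 587 by edgeR. With the core level as a covariate the list had 5, 5, 14, 2, 11 and 2 calls and all genes 1163, 1915, 2386, 146, 3313 and 463. With the share of unannotated reads as a covariate, edgeR called 0 genes of the list in ADF against Vehicle, ADF+ENZ against ENZ, ADF+ENZ against ADF and the interaction, with 5, 9, 0 and 1 under an unadjusted p of 0.05. That covariate separates ADF from the other groups, and over all 18946 genes it left 6, 43, 0 and 0 calls in these comparisons, so the list's counts there are those of nearly every gene. Without a filter ADF+ENZ against ADF had 0 calls (5 under an unadjusted p of 0.05), and with only the groups compared it had 2 and ADF+ENZ against ENZ 1; the cause was not tested. DESeq2 size factors, limma-voom with quality weights and the filter of at least 1 CPM in 4 libraries moved no count by over 1.5 times. Leaving out 1 library gave 1 to 4 calls for ENZ, 1 to 4 for ADF and 4 to 8 for ADF+ENZ against Vehicle, 0 to 4 in ADF+ENZ against ENZ, 0 to 2 in ADF+ENZ against ADF and 1 to 2 for the interaction. Over these fits of ENZ against Vehicle Pecam1 ran from -0.21 to 0.12 and Cdh5 from -0.27 to 0.15, turning positive without ENZ 3 (0.04 and 0.03), ENZ 4 (0.12 and 0.15), Vehicle 1 (0.08 and 0.15) and Vehicle 3 (0.07 and 0.07), uncalled in each. No paired analysis was possible because the groups share no replicate numbers in the labels. Within the list, depth limits Icam2, Tal1, Myct1, Sox7 and Sox17 most, with 14 to 26 counts in their lowest libraries.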
